A study of Mus musculus with 4 samples.

Results

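The 90 genes described here encode the nuclear-encoded subunits of the mitochondrial respiratory chain and ATP synthase, together with factors that assemble complex I. They were chosen by gene symbol alone, from names beginning Ndufa, Ndufb, Ndufc, Ndufs, Ndufv, Uqcr, Cox4 to Cox8 or Atp5 and the 4 succinate dehydrogenase genes Sdha to Sdhd. They make up 90 of 18193 measured genes and were read by 179 probe sets, of which the one with the highest mean over the arrays stood for each gene. Because the symbol rule also takes names beginning Ndufaf, 8 of the 90 are assembly factors of complex I and 82 are subunits. The other members are 6 core and 28 accessory subunits of complex I, 4 of complex II, 8 of complex III, 19 of complex IV (11 ubiquitous and 8 tissue-restricted) and 17 of complex V (5 of the F1 head and 12 of the Fo part and stalks).

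RNA of 4 mouse cell populations was hybridised, on 1 Affymetrix array each. The first came from clone 1 of induced pluripotent stem cells (iPSCs), which adenoviral vectors had produced from tail-tip fibroblasts. The 3 others came from embryonic stem cell (ESC) lines taken from cloned blastocysts after the nucleus of that same clone had been transferred (NT) into an egg; the labels call them subclones 1 to 3, here lines 1 to 3. All 4 were grown with LIF and 15% fetal bovine serum on irradiated mouse embryonic fibroblasts and preplated for 45 min to take feeders away. No strain, sex or passage is given, no line has a second array, and nothing says that the lines are independent derivations, so errors over the lines measure the spread between 3 arrays that may be partly technical. The comparison of the clone with the NT-ESC lines addresses what a passage through the egg changes in a genome already reprogrammed by factors.

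Oxidative phosphorylation couples the transfer of electrons from NADH and succinate to oxygen with the pumping of protons across the inner mitochondrial membrane. Complexes I and II feed electrons to ubiquinone, complex III passes them to cytochrome c, complex IV reduces oxygen, and complex V uses the proton gradient to make ATP. Mouse ESCs of the naive state respire as well as ferment glucose, while somatic reprogramming is accompanied by a shift toward glycolysis. The subunits encoded by mitochondrial DNA are not among these genes.

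Across the arrays, the 8 pluripotency markers had a mean level of 12.20 to 12.32, and Pearson's r between arrays over all genes ran from 0.995 to 0.998, genes not being independent replicates. A level is a log2 intensity on a scale on which every array has a mean of 7, an assumed value, and the median over all probe sets was 6.83. Of 16 fibroblast and feeder markers 15 were measured; 11 of them lay at or above that median on every array, and their mean level ran from 7.95 in the clone to 8.08 in line 2. In a bulk RNA sample, fewer cells of a type and less RNA per cell cannot be told apart. The gap between 3′ and 5′ probe sets of Actb, a measure of RNA quality, was 0.22 in the clone and 0.28, 0.42 and 0.29 in lines 1, 2 and 3. Line 3 stood apart from the other arrays in its genes on chromosomes 8 and 1, and differences that rest on it are also given without it or line by line.

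The respiratory chain genes were mostly bright on the arrays and varied little between them. Of the 90 members 87 lay at or above the median of all probe sets, and 69 had a mean level of 10 or more, as had 2052 of all 18193 genes. The members under the median were Cox7b2 and Cox8b, tissue-restricted complex IV isoforms, and Ndufb4, an accessory subunit of complex I whose single-gene probe set read only 5.04 to 5.16. The range of a member over the 4 arrays was 0.13 log2 in the median, against 0.18 for all genes. At a level of 10 or more it was 0.12 for members and 0.17 for all genes. The range passed 0.32 log2, the limit used for pairs of arrays, in 5 of the 90 members, Cox7a1, Ndufb7, Ndufa4l2, Cox4i1 and Cox7c, against a background of 16.1% of all genes.

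No member was called between the clone and its NT-ESC derivatives. By limma with Benjamini-Hochberg adjustment over all genes, 0 of 90 members were called, against a background of 0% of all genes, and the smallest adjusted p of a member was 0.856. At an unadjusted p under 0.05 there was 1 member, Ndufb1, against a background of 5.53%. An exact permutation of 1 array against 3 cannot give a p below 0.25. In 19 members (21.1%) all 3 lines were higher than the clone, against a background of 24.7%, and in 25 members (27.8%) all 3 were lower, against 26.7%. The members' median difference was 0.0056 log2, and that of all genes was -0.0031.

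This split between higher and lower depended on the scaling and on how the probe sets of a gene were combined. With quantile normalization of the arrays, 13 members were higher and 37 lower in all 3 lines, against 22.4% and 29.2% of all genes. With the mean of all probe sets of a gene the order turned, to 29 higher (32.2%) and 21 lower (23.3%), against 23.5% and 28.3% of all genes. Among genes at a level of 10 or more, 14 of 69 members (20.3%) were higher and 19 (27.5%) lower in all 3 lines, while 34.8% of all genes were higher and 18.5% lower. With the mean of probe sets these members too turned, to 23 higher (33.3%) and 15 lower (21.7%), against 32.1% and 19.9%. Without line 3, 26 of the 90 members (28.9%) were higher and 35 (38.9%) lower in both remaining lines, against 35.4% and 34.9% of all genes. Of the medians of the 9 groups by complex and role, 3 kept their sign with quantile normalization, with the mean of probe sets and without each line in turn, those of complex III, the Fo part and stalks, and the tissue-restricted isoforms.

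**Figure D1:**
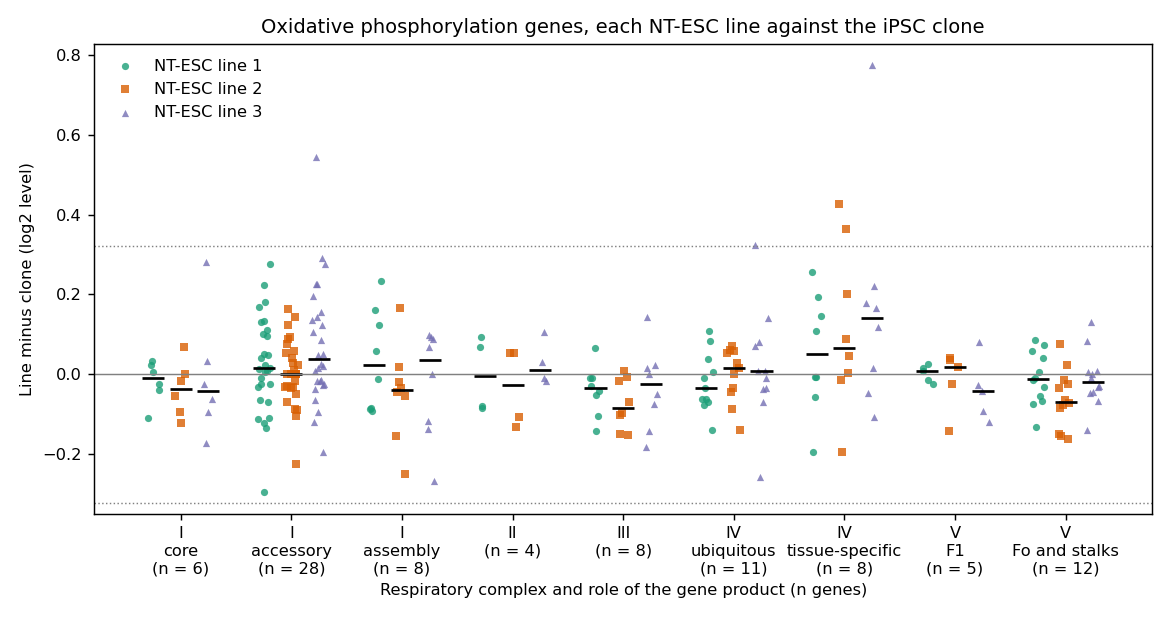
Each point is the log2 level of a gene in an NT-ESC line minus its level in the iPSC clone (y axis), grouped on the x axis by respiratory complex and role; circles, squares and triangles are lines 1, 2 and 3, black bars are medians and dotted lines mark 0.32 log2 up and down. Most points lie between the dotted lines, and those above them are Cox7a1 and Ndufa4l2 in line 2 and Cox7a1, Ndufb7 and Cox4i1 in line 3.

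Taken line by line, few members stood 0.32 log2 or more from the clone. In line 1 there were 0 members that far above it, against a background of 2.59% of all genes. In line 2 there were 2, Cox7a1 and Ndufa4l2, against 2.28%. In line 3 there were 3, Cox7a1, Ndufb7 and Cox4i1, against 4.49%. Below the clone by 0.32 log2 were 0 members in each line, with backgrounds of 1.65%, 1.18% and 2.98% in lines 1, 2 and 3. These comparisons share the same clone array, and a pair of arrays has no replicate.

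The core subunits of complex I, which hold the flavin and iron-sulfur clusters of the path from NADH to ubiquinone, lay close to the clone on the probe sets used. Of the 6, 0 were higher and 3 lower in all 3 lines, with a median difference of -0.022. Over all genes 24.7% were higher and 26.7% lower, and at a level of 10 or more 34.8% and 18.5%. These are the backgrounds for the counts of each complex below. With the mean of probe sets 2 of the 6 were higher and 3 lower and the median turned to 0.019. The 3 lower ones were Ndufs7, Ndufs8 and Ndufs3. Ndufs7, an iron-sulfur subunit next to the quinone site, read 10.46 in the clone and 10.36, 10.34 and 10.29 in lines 1, 2 and 3, a difference of -0.13 ± 0.08 (SE, n = 3 against 1). Ndufs8, another iron-sulfur subunit, read 11.21 and then 11.18, 11.16 and 11.12, and Ndufs3 read 11.21 and then 11.19, 11.12 and 11.15. Ndufv1, which binds NADH, and Ndufv2, its iron-sulfur partner, ran from 11.02 to 11.11 and from 11.70 to 11.75 over the 4 arrays, with the clone inside both ranges. Their further probe sets put all 3 lines above the clone, by 0.11 and 0.17 for Ndufv1 and by 0.071 and 0.13 for Ndufv2. Ndufs1, the largest of the iron-sulfur subunits, read 9.96 in the clone, 9.97 and 9.96 in lines 1 and 2 and 10.24 in line 3.

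The 28 accessory subunits of complex I, which surround the core and stabilise it, held the complex I genes furthest above and furthest below the clone. In 9 of them all 3 lines were higher than the clone and in 4 lower, with a median difference of 0.039. Quantile normalization turned this split to 5 higher and 7 lower. Ndufb7 read 11.08 in the clone and 11.18, 11.21 and 11.63 in lines 1, 2 and 3. Its difference was 0.26 ± 0.19 (SE), and 0.11 without line 3. Ndufb11, encoded on the X chromosome, read 11.20 in the clone and 11.38, 11.36 and 11.43 in the lines, a difference of 0.19 ± 0.08. On this probe set the lines lay close together and above the clone, but a second one read 10.86 in the clone and 10.85, 10.82 and 10.95 in the lines, a difference of 0.015. Ndufa6 differed by 0.15, Ndufb6 by 0.15 and Ndufb3 by 0.11, the last being 0.018 without line 3.

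Ndufb1, an accessory subunit of the membrane arm, was the member furthest below the clone. It read 7.62 in the clone and 7.32, 7.39 and 7.42 in lines 1, 2 and 3, a difference of -0.24 ± 0.08 (SE). All 3 lines lay under the clone, but limma with Benjamini-Hochberg adjustment over all genes gave an adjusted p of 0.856 (unadjusted 0.0314). Among the accessory subunits Ndufb5 came next, at 11.47 in the clone and 11.36, 11.37 and 11.38 in the lines.

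The 8 assembly factors, which are not part of the finished complex I, lay on both sides of the clone. In 1 of them all lines were higher than the clone and in 3 lower, with a median difference of 0.012. Ndufaf4, which acts with Ndufaf3 in assembly, read 9.56 in the clone and 9.46, 9.31 and 9.29 in lines 1, 2 and 3, a difference of -0.20 ± 0.10. Ndufaf7, a methyltransferase that modifies a core subunit, read 8.79 and then 9.03, 8.96 and 8.89, a difference of 0.17 ± 0.09. Neither passed the test.

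Complex II, the succinate dehydrogenase that also works in the citric acid cycle, is built of 4 subunits. On the probe sets used, none of them differed from the clone by more than 0.075 log2. Second probe sets above the median level gave differences of 0.090 for Sdha, 0.16 for Sdhc and 0.23 for Sdhd. Sdha, the flavoprotein that oxidises succinate, read 10.79 in the clone and 10.86, 10.84 and 10.89 in lines 1, 2 and 3. Sdhb, the iron-sulfur subunit, read 11.14 and then 11.23, 11.19 and 11.13. Sdhd, a membrane anchor, was lower in all 3 lines at 11.17, 11.11 and 11.23 against 11.25. Sdhc, the other anchor, ran from 10.94 to 11.08.

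Complex III, which passes electrons from ubiquinol to cytochrome c, had 0 of 8 genes higher and 4 lower than the clone in all 3 lines, with a median difference of -0.040. With the mean of probe sets 2 were higher and 4 lower, and with quantile normalization 0 and 6. The median kept its sign in both (-0.037 and -0.086) and without each line in turn (-0.024 to -0.051). The 4 were Uqcr10, Uqcrh, Uqcrq and Uqcr11, which encode small subunits. Uqcr10 read 11.46 in the clone and 11.36, 11.31 and 11.28 in lines 1, 2 and 3, a difference of -0.14 ± 0.08. Uqcrh, the hinge protein that contacts cytochrome c1, read 11.36 and then 11.22, 11.26 and 11.22, a difference of -0.13 ± 0.08. On the probe sets used, the core proteins Uqcrc1 and Uqcrc2, the Rieske iron-sulfur protein Uqcrfs1 and the quinone-binding Uqcrb did not lie on the same side in all lines. They ranged over the 4 arrays from 11.93 to 12.01, 11.08 to 11.16, 10.68 to 10.80 and 12.84 to 12.99. A second probe set above the median level put all 3 lines above the clone for Uqcrc2 (0.24) and Uqcrb (0.23), while Uqcrc1 and Uqcrfs1 had no other probe set.

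Complex V makes ATP with a rotating shaft between a membrane ring and a catalytic head. Of its 5 F1 genes, 1 was higher and 2 lower than the clone in all 3 lines. Atp5b, the catalytic beta subunit, read 13.09 in the clone and 13.10, 13.11 and 13.17 in lines 1, 2 and 3, and Atp5a1, the alpha subunit, 12.97 and then 13.00, 13.01 and 12.95. The gamma subunit Atp5c1 of the shaft ran from 11.87 to 11.96, the delta subunit Atp5d from 11.81 to 11.90 and the epsilon subunit Atp5e from 10.58 to 10.72, with the clone the highest array for Atp5c1 and Atp5e.

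Of the 12 genes of the Fo part and stalks, 1 was higher and 4 lower in all 3 lines, with a median difference of -0.050. Quantile normalization gave 0 higher and 9 lower, and the median was -0.0098 with the mean of probe sets and -0.012 without line 2. Atp5l, subunit g of the membrane part, read 11.14 in the clone and 11.01, 10.98 and 11.00 in lines 1, 2 and 3, a difference of -0.14 ± 0.08. The c subunit, which forms the rotating ring, is encoded by 3 genes whose mature proteins are the same. Atp5g1 read 11.24 in the clone and 11.21, 11.16 and 11.19 in the lines, and Atp5g3 read 12.97 and then 12.92, 12.90 and 12.93. Atp5g2 read 12.11 in the clone and 12.04, 12.03 and 12.11 in the lines.

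Complex IV, cytochrome c oxidase, has nuclear-encoded subunits that exist as ubiquitous and tissue-restricted isoforms, and the array read both kinds. Of the 11 ubiquitous genes, 2 were higher and 2 lower than the clone in all 3 lines, with a median difference of 0.0056. Cox5a read 12.88 in the clone and 12.99, 12.95 and 12.96 in lines 1, 2 and 3, and Ndufa4, long counted with complex I, read 11.36 and then 11.39, 11.37 and 11.43. Cox6c was lower in the lines at 12.40, 12.40 and 12.47 against 12.54, and Cox7a2 at 12.38, 12.39 and 12.40 against 12.44. Cox6a1, Cox6b1, Cox8a and Cox7a2l, the last a factor that joins complexes III and IV, spanned 0.06 to 0.14 log2 over the 4 arrays, with the clone inside each range. Cox7c was read by a probe set of level 7.78 to 8.12, with line 3 the lowest array.

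**Figure D2:**
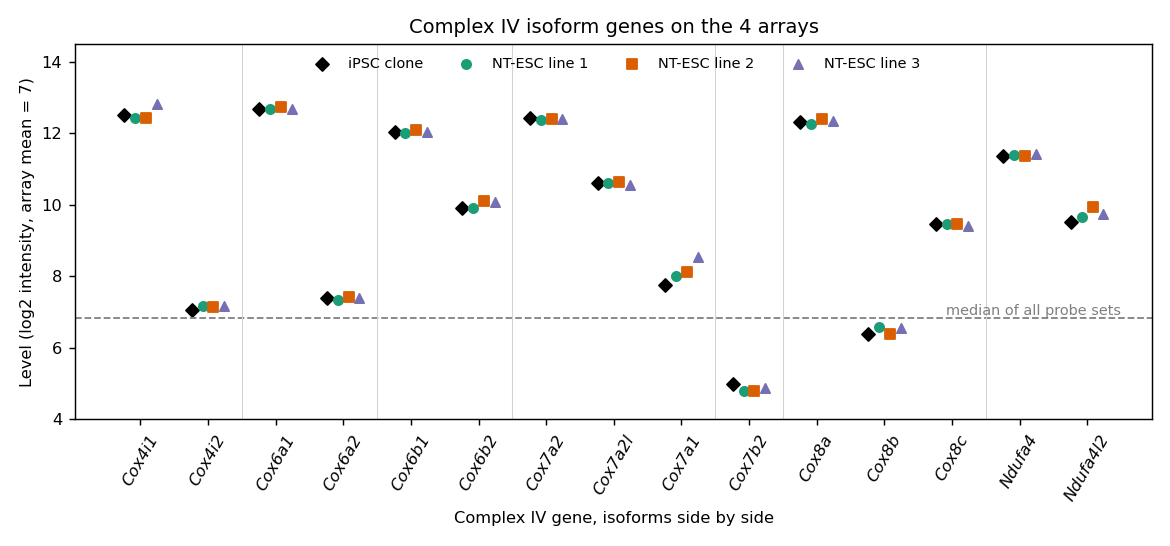
Level of complex IV isoform genes (y axis, log2 intensity with the array mean at 7) on the 4 arrays, with isoforms of a subunit side by side on the x axis; diamonds are the iPSC clone, circles, squares and triangles NT-ESC lines 1, 2 and 3, and the dashed line is the median of all probe sets. Levels of different probe sets are not comparable; within a gene, Cox7a1 reads 7.76 in the clone and 8.54 in line 3 and Cox4i1 is highest in line 3.

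The tissue-restricted isoforms held the members furthest above the clone. Of the 8, 4 were higher and 2 lower in all 3 lines, with a median difference of 0.11. Quantile normalization gave the same counts, with a median of 0.091. Cox7a1, the isoform of heart and skeletal muscle, read 7.76 in the clone and 8.02, 8.12 and 8.54 in lines 1, 2 and 3, a difference of 0.46 ± 0.20 (SE). Every line lay above the clone and line 3 above the others. Without line 3 the difference was 0.31. Ndufa4l2, a paralogue of Ndufa4 that hypoxia-inducible factor induces, read 9.53 in the clone and 9.68, 9.96 and 9.75 in the lines, a difference of 0.26 ± 0.12.

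Cox4i2, the lung isoform of subunit 4, read 7.05 in the clone and 7.16, 7.14 and 7.17 in lines 1, 2 and 3. Cox8b, of muscle and brown fat, read 6.38 and then 6.58, 6.39 and 6.56, under the median of all probe sets. Cox7b2, a testis isoform, stood at 4.98 in the clone and 4.79, 4.79 and 4.88 in the lines, also under that median. Other testis isoforms were well above it. Cox6b2 read 9.92 in the clone and 9.91, 10.12 and 10.09 in lines 1, 2 and 3, and Cox8c read 9.47, 9.46, 9.46 and 9.42. A second, dimmer Cox8c probe set read 8.01 in the clone and 7.68, 7.94 and 7.73 in the lines, a difference of -0.23. Cox6a2, of heart and skeletal muscle, ran from 7.33 to 7.44.

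Markers of the tissues known for these isoforms had a larger median range over the arrays than all genes. They did not consistently have a larger share past 0.32 log2. Their median range over the 4 arrays was 0.23 log2 for muscle, 0.22 for brown fat and 0.21 for male germ cells, against 0.18 for all genes. The range passed 0.32 log2 in 2 of 10 muscle, 0 of 6 brown fat and 1 of 8 male germ cell markers, against 16.1% of all genes. The muscle gene Acta1 ran from 7.03 in line 3 to 8.01 in line 1. The mean level of 10 muscle markers was 6.49 in the clone and 6.58, 6.54 and 6.48 in lines 1, 2 and 3. Of these markers 3 to 5 lay at or above the median of all probe sets, and 3 of 10 were higher than the clone in all lines, against 24.7% of all genes. For 6 brown fat markers the mean level was 5.97 to 6.03, with 1 at or above the median, and for 8 male germ cell markers 6.01 to 6.08, with 4 at or above. Their part in the isoform values was not tested.

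In line 3, members on chromosome 8 stood above the other 3 arrays together. All 3 members of that chromosome, Ndufb7, Cox4i1 and Ndufa13, were highest in line 3, against a background of 66.1% of the chromosome's 932 genes and 25.7% of all genes, and their median difference from the other arrays was 0.38 log2. Among chromosome 8 genes at a level of 10 or more, 118 of 124 were highest in line 3, with a median of 0.37. The higher level of chromosome 8 genes in line 3 was known before these members were listed.

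Ndufb7 read 11.63 in line 3 and 11.08 to 11.21 on the others, a difference of 0.47 ± 0.09 (SE), and a second probe set for it gave 0.51. Cox4i1, the ubiquitous isoform of the largest nuclear subunit of complex IV, read 12.83 in line 3 and 12.50, 12.44 and 12.42 in the clone and lines 1 and 2, a difference of 0.38 ± 0.08. Ndufa13, an accessory subunit of complex I also known as GRIM-19, read 11.22 in line 3 and 10.92 to 10.95 elsewhere, a difference of 0.28 ± 0.08. In all 3 genes the single array of line 3 was the highest of the 4, as it was in 25.7% of all genes and 66.1% of chromosome 8 genes. By limma with Benjamini-Hochberg adjustment over all genes the adjusted p was 0.0891 for Ndufb7, 0.115 for Cox4i1 and 0.200 for Ndufa13, so none was called. In this contrast 0 of 90 members were called, against a background of 0.462% of all genes, and 8 had an unadjusted p under 0.05, against 11.6%. With a prior variance that follows the level, Ndufb7 (adjusted p = 0.0477 by limma) and Cox4i1 (0.0483) passed, and with the mean of all probe sets Ndufb7 did (0.0362), against 0.841% and 0.923% of all genes called under these settings.

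The 5 members on chromosome 1 showed a smaller difference of the same direction, a group set apart after their values were seen. All 5 were highest in line 3, against a background of 41.7% of the chromosome's genes. Among chromosome 1 genes at a level of 10 or more, 83 of 116 were highest in line 3, with a median of 0.20. Ndufb3 and Ndufs1 differed by 0.28 each, Ndufa10 by 0.23, Cox5b by 0.16 and Sdhc by 0.09. Of 5 further probe sets for these genes at or above the median level, 4 were also highest in line 3. Members off chromosomes 1 and 8 were highest in line 3 in 24 of 82 genes.

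**Figure D3:**
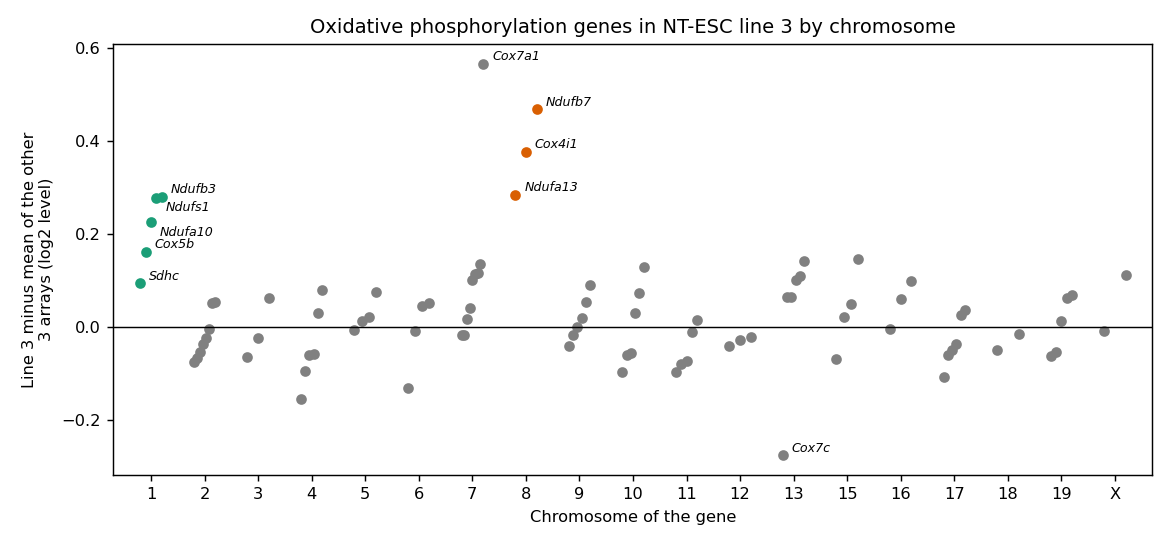
Each point is a gene's level in NT-ESC line 3 minus its mean on the other 3 arrays (y axis, log2), placed by the chromosome of the gene (x axis); the 3 genes of chromosome 8 are orange, the 5 of chromosome 1 green and all others grey. All coloured points lie above 0, from 0.09 for Sdhc to 0.47 for Ndufb7, and Cox7a1 on chromosome 7 is the highest point.

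Outside those chromosomes, Cox7a1 on chromosome 7 had the largest difference of line 3 from the other arrays, 0.57 ± 0.14 (SE; adjusted p = 0.153 by limma with Benjamini-Hochberg adjustment). Over the 9 members on chromosome 7 the median difference was 0.10, and over the chromosome's 150 genes at a level of 10 or more it was -0.014. Below the other arrays in line 3, Cox7c differed by -0.27 ± 0.09, Ndufaf4 by -0.15, Ndufa5 by -0.13, Ndufb10 by -0.11 and Uqcr10 by -0.10.

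Lines 1 and 2 each stood apart from the other arrays in few members, and 0 of 90 were called in either contrast by limma with Benjamini-Hochberg adjustment, against a background of 0% of all genes. At an unadjusted p under 0.05 there was 1 member in each, against backgrounds of 2.77% for line 1 and 2.33% for line 2. Line 1 was highest for Ndufa5 (0.26 above the mean of the other arrays), Ndufb10 (0.20) and Cox7c (0.18), and lay below it for Ndufb1 (-0.16), Cox4i1 (-0.15) and Cox6b2 (-0.13). Line 2 was highest for Ndufa4l2 (0.30), Cox6b2 (0.15) and Cox8a (0.08), and lay below for Ndufaf2 (-0.20), Cox4i1 (-0.17) and Atp5md (-0.15). The values of Cox4i1 in both lines are set against a mean that includes line 3.

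Where a gene had several probe sets, they did not always agree on direction. Of 46 members with at least 2 probe sets at or above the median level, 22 had all of them on the same side of the clone. Some further bright probe sets differed from the clone in the direction opposite to the values above. Among them were those for Cox6c (0.080), Ndufs7 (0.066), Sdhd (0.23), Sdhc (0.16), Uqcrc2 (0.24), Atp5c1 (0.29) and Ndufb6 (-0.026).

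Genes that serve the same organelle gave a wider picture, and none of the genes in it was called between clone and lines. Cycs, the somatic cytochrome c, read 11.91 in the clone and 12.02, 11.90 and 12.06 in lines 1, 2 and 3, and Cyc1, the cytochrome c1 of complex III, ran from 12.19 to 12.28. Of 33 other respiratory assembly factors, 8 (24.2%) were higher and 11 (33.3%) lower than the clone in all 3 lines, against 24.7% and 26.7% of all genes. Their median difference was -0.0099. The largest differences were those of Coa5 (0.24) and Ttc19 (0.23), which act in assembly of complex IV and in the upkeep of complex III, and Ecsit (-0.20), a complex I assembly factor. Of 18 regulators of mitochondrial biogenesis, 5 (27.8%) were higher and 4 (22.2%) lower, against the same shares of all genes. Polg, the mitochondrial DNA polymerase, differed by 0.19, the coactivator Ppargc1a by -0.19 at a level of 4.90 to 5.11, under the median of all probe sets, and the mitochondrial transcription factor Tfb2m by -0.18.

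Of 16 genes of the citric acid cycle and pyruvate dehydrogenase, 8 (50%) were higher and 1 (6.25%) lower in all 3 lines, with a median difference of 0.041. The backgrounds were 24.7% and 26.7% of all genes, and 34.8% and 18.5% of all genes at a level of 10 or more. The median level of the list was 10.6. With quantile normalization the counts were 6 and 3, against 22.4% and 29.2% of all genes and 23.8% and 29.6% at a level of 10 or more. Sucla2 differed by 0.14, Fh1 by 0.13 and Pdha1 by 0.12. Of 6 mitochondrial genes linked to the response to hypoxia-inducible factor, Ndufa4l2 being listed apart, 5 were higher and 1 lower in all 3 lines. The backgrounds were 24.7% and 26.7% of all genes, or 34.8% and 18.5% at a level of 10 or more. With the mean of probe sets 3 of the 6 were higher and 2 lower, against 23.5% and 28.3% of all genes. Higd1a differed by 0.23, Bnip3 by 0.15 and the protease Lonp1 by 0.14.

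Many genes of the mitochondrial ribosome, which translates the subunits encoded by mitochondrial DNA, lay below the clone. Of 76 genes 5 were higher and 37 (48.7%) lower in all 3 lines, against backgrounds of 24.7% and 26.7%, and the median difference was -0.081. The count lower in every line was 54 (71.1%) with quantile normalization, against 29.2% of all genes, and 38 to 48 (50.0% to 63.2%) with a line left out, against 32.8% to 35.0%. Mrps24 read 11.11 in the clone and 10.98, 10.98 and 10.61 in lines 1, 2 and 3. Mrpl50 read 9.58 and then 9.44, 9.21 and 9.35, and Mrpl17 11.11 and then 10.95, 10.89 and 10.78. None of the 76 passed the test, and every line is compared with the same clone array.

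**Figure D4:**
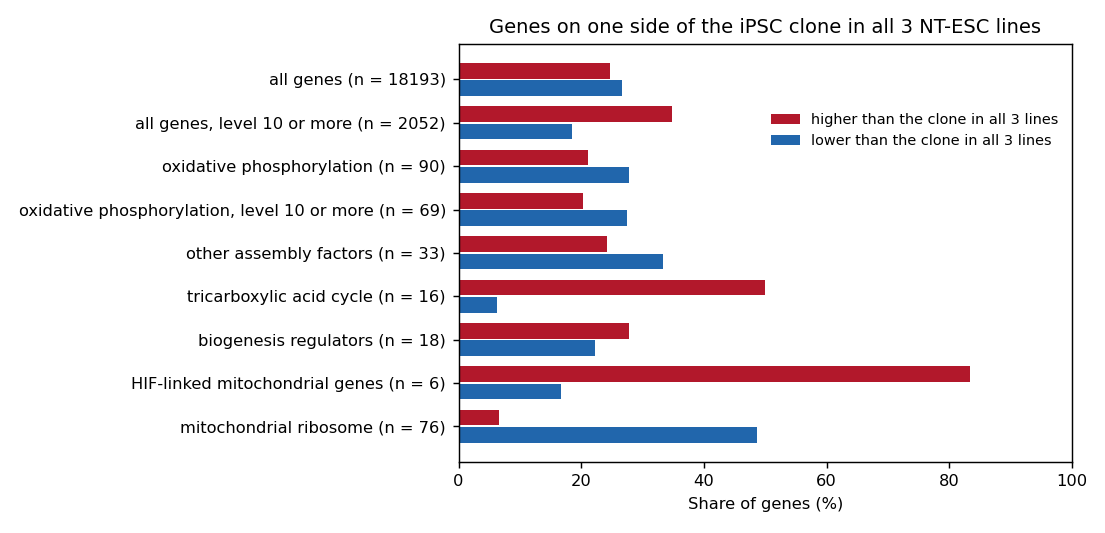
Share of genes (x axis, %) that were higher (red) or lower (blue) than the iPSC clone in all 3 NT-ESC lines, for all genes, the oxidative phosphorylation genes and other mitochondrial lists (y axis, with the number of genes). The oxidative phosphorylation bars (21.1% and 27.8%) lie near those of all genes (24.7% and 26.7%), while the mitochondrial ribosome shows 48.7% lower.

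The promoters of these genes have known regulators, nuclear respiratory factor 1 (NRF1), ETS factors such as GABP and YY1, which couple respiratory genes to cell growth. RefSeq promoter sequences of build GRCm38.p6 were matched by gene identifier for 74 of 90 members (79 entries, some genes having more than 1 start), and the 250 bases before each start were searched. Searched on both strands, the consensus of NRF1, whose matches are the longer runs of capitals in the sequences printed, was found in 16.5% of members' promoters, against 6.04% of 18009 promoters of measured genes and 3.74% of all 32851. CCGGAAG for ETS factors was found in 17.7%, against 10.1% and 6.91%, and AANATGGC for YY1 in 8.86%, against 3.82% and 3.91%. On the gene's strand alone, TATAAA was found in 2.53%, against 5.58% and 7.59%. The median number of CpG dinucleotides was 15 in members' promoters and 12 in those of measured genes. None of these motifs contains another, and a match is a description of the sequence, not of binding.

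For Cox6b2, Cox7a1, Cox7b2 and Cox8b, the tissue-restricted complex IV isoforms with an entry, none of the 4 motifs was found and the median was 6 CpG. Each motif was also absent from most of the 75 promoters of other members, the most frequent, ETS, being found in 18.7%. Absence from 4 promoters therefore says little. The promoters below show Sdha and Cox6a1, which with Ndufb4 hold the most matches (3 each) among the members. They also show Ndufb7, Ndufa13 and Cox7a1, which were named in the line comparisons, while Cox4i1 had no matched promoter sequence. Each is 5′ to 3′ on the gene's strand and ends at the base before the start, and capitals mark matches to the NRF1 or ETS letters on either strand. Sdha (chr13:74350241-74350490, minus strand) holds 3 NRF1 matches, the last of them ending at the start. Cox6a1 (chr5:115348959-115349208, minus strand) holds 2 NRF1 matches and 1 ETS match. Ndufb7 (chr8:83566508-83566757, plus strand) holds 1 ETS match, and Ndufa13 (chr8:69902021-69902270, minus strand), which shared its difference in line 3, holds none of the letters searched. Cox7a1 (chr7:30183921-30184170, plus strand), the member furthest above the clone, holds none and has 4 CpG.
Sdha: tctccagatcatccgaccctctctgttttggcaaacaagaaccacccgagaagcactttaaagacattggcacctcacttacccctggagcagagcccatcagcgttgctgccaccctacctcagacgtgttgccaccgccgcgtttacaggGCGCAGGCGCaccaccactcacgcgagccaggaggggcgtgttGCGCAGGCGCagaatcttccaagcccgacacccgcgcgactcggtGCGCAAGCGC
Cox6a1: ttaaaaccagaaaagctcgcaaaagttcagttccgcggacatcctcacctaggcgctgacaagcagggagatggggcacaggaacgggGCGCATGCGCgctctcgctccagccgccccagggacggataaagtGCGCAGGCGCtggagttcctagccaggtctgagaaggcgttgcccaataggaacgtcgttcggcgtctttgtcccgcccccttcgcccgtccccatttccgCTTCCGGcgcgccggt
Ndufb7: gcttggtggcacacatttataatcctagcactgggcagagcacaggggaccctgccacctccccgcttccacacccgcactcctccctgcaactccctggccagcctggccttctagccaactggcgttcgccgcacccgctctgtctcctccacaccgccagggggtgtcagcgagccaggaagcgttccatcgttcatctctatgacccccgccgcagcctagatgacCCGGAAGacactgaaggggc
Ndufa13: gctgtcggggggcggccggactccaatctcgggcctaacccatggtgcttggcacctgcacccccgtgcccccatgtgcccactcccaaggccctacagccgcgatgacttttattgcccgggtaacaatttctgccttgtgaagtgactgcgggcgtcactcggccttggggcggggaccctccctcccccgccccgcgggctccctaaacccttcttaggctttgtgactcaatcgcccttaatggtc
Cox7a1: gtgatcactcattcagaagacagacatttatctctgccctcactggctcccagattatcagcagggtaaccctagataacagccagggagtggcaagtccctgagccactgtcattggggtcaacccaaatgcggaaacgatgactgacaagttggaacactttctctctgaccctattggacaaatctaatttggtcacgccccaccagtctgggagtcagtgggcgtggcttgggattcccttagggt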

How the data were processed

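Total RNA of 1 iPSC clone and 3 NT-ESC lines was labelled with biotin, per the labels' protocols; the software that normalized the arrays is not given in the sources used here. Values deposited by the authors are on a log2 scale, but 2 raised to the value averages 1 on every array, as for the log2 of a log intensity over its array mean. The plan had taken them as log2 intensities; instead 2 raised to each value was multiplied by an assumed mean of 7. Taking 6 instead makes differences 14.3% smaller, and taking 7.86, which lets the top probe set read 16, makes them 12.3% larger, while the p-values of limma stay the same. Arrays have no read depth, and their number, 4, limits the precision.

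Of 45101 probe sets, 64 were controls. The platform annotation names 1 gene for 34945, several for 932 and none for 9160, and only the first kind was used. Chromosomes came from the RefSeq table of GRCm38.p6. For each of 18193 genes the probe set of highest mean was taken. Contrasts were fitted in R 4.3.3 with limma 3.58.1, by lmFit with eBayes, as two-sided tests called at a Benjamini-Hochberg adjusted p under 0.05 over all genes, with 2 residual and 3.57 prior degrees of freedom for the lines against the clone, whose lone array was assumed to vary like the lines. On simulated data with 200 changed genes the fit recovered 6.87% of those changed by 0.5 log2, 83.0% by 1 and 98.2% by 2, with 7.6 false calls per run.

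The members, lists and named genes were chosen with earlier results of these data known. Genes named are the core subunits of complex I measured, all of complexes II and III, complex IV with its isoforms, the F1 and c subunit genes, members on chromosome 8, up to 10 members in each direction on the same side of the clone in all lines, up to 5 in each direction for line 3 and 3 for lines 1 and 2, and up to 3 of each other list. Others were chosen after their values were seen. Alternatives were the assumed mean, the values as deposited, the mean of probe sets, leaving out dim genes, quantile normalization, a variance trend and each line left out.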

Additional observations from a re-analysis of the deposited data

How the results depend on the processing

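Under the alternatives 555 values were recomputed. Of these, 535 kept their direction and side of the threshold, or moved by less than the margin set for them, and 20 did not. None of the 42 single-gene results changed sign in 418 values, but several alternatives could not change one. Other assumed means rescale every level alike, and a variance trend or leaving out dim genes leaves each difference as it was. No alternative replaced a gene's probe set by another. Of 46 members with at least 2 probe sets at or above the median level, 22 had all of them on the same side of the clone. The members' median difference from the clone was 0.020 with the mean of probe sets and -0.025 with quantile normalization, and -0.0043 to 0.0063 with a line left out. Members higher than the clone in every line numbered 29 with the mean of probe sets and 25 to 29 (27.8% to 32.2%) with a line left out, where all genes gave 31.2% to 35.4%. Members at least 0.32 log2 from the clone numbered 1 in line 1 with the brightest probe set at 16 and 1 in line 2 with an assumed mean of 6. In line 3, 1 member was called with the mean of probe sets and 2 with a variance trend, against 0.923% and 0.841% of all genes. The chromosome 8 median was 0.043 on the deposited values, which are on a compressed scale. Mitochondrial ribosomal genes higher in every line numbered 3 with quantile normalization and 7 to 10 with a line left out; this list's alternatives were added after seeing the data. The causes were not tested, apart from the smaller number of lines to satisfy when one is left out. No paired analysis was possible because all the lines came from the same clone, which was read on 1 array. With 1 array a line, differences of the size seen here lie mostly below what the fit recovers on simulated data.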
